A study of Homo sapiens with 2 samples.

Results

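NUDT21 peaks were examined at 10 genes that encode enzymes of glycolysis: HK1, HK2, GPI, PFKP, ALDOA, TPI1, GAPDH, PGK1, ENO1 and LDHA. They were taken by gene name from GENCODE release 44 and are 10 of 20033 protein-coding genes. Every peak within 3000 bp of any annotated transcript start of a gene, over the gene body or within 1000 bp past the gene end was assigned to that gene. This gave 73 of the 97162 peaks of replicate 1 and 59 of the 68532 peaks of replicate 2. Both samples were CUT&Tag libraries of J.gamma1, made in independent experiments with an antibody against NUDT21. J.gamma1 is a human cell line of T-cell acute lymphoblastic leukemia, a Jurkat derivative that lacks phospholipase C gamma 1, so both libraries describe a single clonal line. The samples formed 1 group without treatment or genotype contrast, no control sample was analysed here, and the study used them to ask whether NUDT21 was present at promoters.

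Glycolysis converts glucose to pyruvate in the cytosol. In the preparatory steps, hexokinases, glucose-6-phosphate isomerase, phosphofructokinase, aldolase and triose phosphate isomerase spend ATP and split the sugar. In the later steps, glyceraldehyde-3-phosphate dehydrogenase, phosphoglycerate kinase and enolase lead to pyruvate kinase and return ATP, and lactate dehydrogenase regenerates NAD+ from pyruvate. Leukemia and activated T cells are known for high glycolytic flux. NUDT21 is the small subunit of cleavage factor I, which binds UGUA in nascent RNA near polyadenylation sites. CUT&Tag instead records where the antibody target lies on chromatin, because a tethered transposase cuts the DNA nearby.

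The 6 stretches of reference sequence below are examples chosen from the group. Each holds the 250 bases before an annotated start, written 5′ to 3′ on the strand of the gene, all of them on the plus strand. In the first set the CpG dinucleotides are in capitals. The HK1 start at chr10:69278246-69278495 (RefSeq, GRCh38.p14) had no peak in either replicate, and its stretch held 1 CpG. The HK1 intron 1 start at chr10:69334364-69334613 (RefSeq, GRCh38.p14), with 5 CpG, was covered in both replicates. The ALDOA start at chr16:30065510-30065759 (RefSeq, GRCh38.p14) held 29 CpG and lay under the highest promoter fold of the members in replicate 1. The upstream GPI start at chr19:34359230-34359479 (hg38, before the first GENCODE start) held 30 CpG and lay under the strongest GPI peaks. Stretches rich in CpG but without a peak in replicate 2, such as 1 of HK1 with 30 CpG, are not shown.
HK1, no peak: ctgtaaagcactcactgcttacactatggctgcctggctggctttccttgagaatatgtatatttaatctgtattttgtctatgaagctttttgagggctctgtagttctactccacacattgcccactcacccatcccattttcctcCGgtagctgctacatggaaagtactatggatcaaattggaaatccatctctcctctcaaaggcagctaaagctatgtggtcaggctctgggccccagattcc
HK1, intron 1: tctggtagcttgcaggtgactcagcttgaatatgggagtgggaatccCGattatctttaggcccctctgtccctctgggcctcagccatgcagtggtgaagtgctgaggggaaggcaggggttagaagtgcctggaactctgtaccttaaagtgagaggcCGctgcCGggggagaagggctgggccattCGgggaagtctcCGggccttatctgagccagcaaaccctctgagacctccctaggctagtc
ALDOA: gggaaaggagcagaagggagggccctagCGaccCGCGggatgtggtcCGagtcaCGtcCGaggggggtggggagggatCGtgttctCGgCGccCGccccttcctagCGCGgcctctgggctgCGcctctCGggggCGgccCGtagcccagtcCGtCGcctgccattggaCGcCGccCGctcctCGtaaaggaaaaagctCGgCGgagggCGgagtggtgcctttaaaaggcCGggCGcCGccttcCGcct
GPI, upstream: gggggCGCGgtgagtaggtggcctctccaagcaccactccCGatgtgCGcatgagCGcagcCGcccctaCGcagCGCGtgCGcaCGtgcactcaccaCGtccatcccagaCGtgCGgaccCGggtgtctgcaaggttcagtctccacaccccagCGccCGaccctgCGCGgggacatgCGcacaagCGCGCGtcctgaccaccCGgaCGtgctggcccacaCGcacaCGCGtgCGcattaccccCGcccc

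In the second set, ACGTG or its reverse complement is in capitals. ACGTG is the core of the hypoxia response element and forms part of the E-box CACGTG. The stretch before the inner HK2 start at chr2:74834920-74835169 (RefSeq, GRCh38.p14) held 2 E-boxes, each of which reads as ACGTG on both strands. The stretch before the canonical PGK1 start at chrX:78103998-78104247 (RefSeq, GRCh38.p14) held 2 separate cores.
HK2, inner: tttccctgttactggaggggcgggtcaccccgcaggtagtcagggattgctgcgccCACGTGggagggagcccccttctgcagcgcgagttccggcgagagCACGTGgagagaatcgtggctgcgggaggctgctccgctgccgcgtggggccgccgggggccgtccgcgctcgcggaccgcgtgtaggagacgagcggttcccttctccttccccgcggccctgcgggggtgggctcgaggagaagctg
PGK1: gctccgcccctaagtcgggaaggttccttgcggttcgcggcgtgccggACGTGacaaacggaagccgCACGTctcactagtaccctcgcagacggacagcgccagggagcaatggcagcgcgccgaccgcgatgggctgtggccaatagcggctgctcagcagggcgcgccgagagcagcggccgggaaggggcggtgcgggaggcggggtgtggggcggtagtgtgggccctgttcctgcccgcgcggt

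Promoter peaks were present at all 10 genes in both replicates, while 57.0% of all protein-coding genes did. Peaks were counted as promoter peaks when any part of them came within 3000 bp of an annotated start of the gene. Each peak carries a fold enrichment at its summit, which is comparable between peaks of 1 list but not between lists, so each fold was also ranked as the percentage of peaks in its own list with a lower fold. For 5 genes, ALDOA, ENO1, GAPDH, GPI and TPI1, the strongest promoter fold was above 90% of the list in both replicates, which held for 17.0% of protein-coding genes. The next gene, PFKP, stood at 90.1% in replicate 1 and 85.2% in replicate 2. The remaining 4 genes lay lower and moved more between replicates, HK1 from 81.8% to 51.7%, LDHA from 81.7% to 49%, HK2 from 68.1% to 41%, and PGK1 from 87.4% to 22.8%. The 5 leading genes were picked by these same ranks, so their distance from the other 5 restates that choice. In replicate 1 the margin was narrow, 92.8% at TPI1 against 90.1% at PFKP. The leading fold of TPI1 in replicate 1 and that of ALDOA in replicate 2 had their summits over 3000 bp from the canonical start. With canonical starts only, GPI stood at 77.9% and 43.2%. The order within each of these sets differed between replicates.

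Over the 10 genes the median of this percentage was 91.4% in replicate 1 and 89.7% in replicate 2. Over all protein-coding genes with promoter peaks it was 82.2% of 13978 genes and 77.9% of 11603 genes. The members also had more annotated starts, a median of 14.5 per gene against 5. When only peaks within 3000 bp of the canonical start were counted, all 10 genes still had a peak in both replicates (all genes, 52.3%). At HK1, HK2, GPI and PFKP, no start of the canonical cluster itself lay inside a peak in replicate 2. The medians of the 10 genes then fell to 84.5% in replicate 1 and 54.4% in replicate 2, against 79.5% and 74.3% for all genes. In replicate 2 the members thus ranked below the typical gene. The rank of the group therefore rested in part on starts other than the canonical one.

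**Figure D1:**
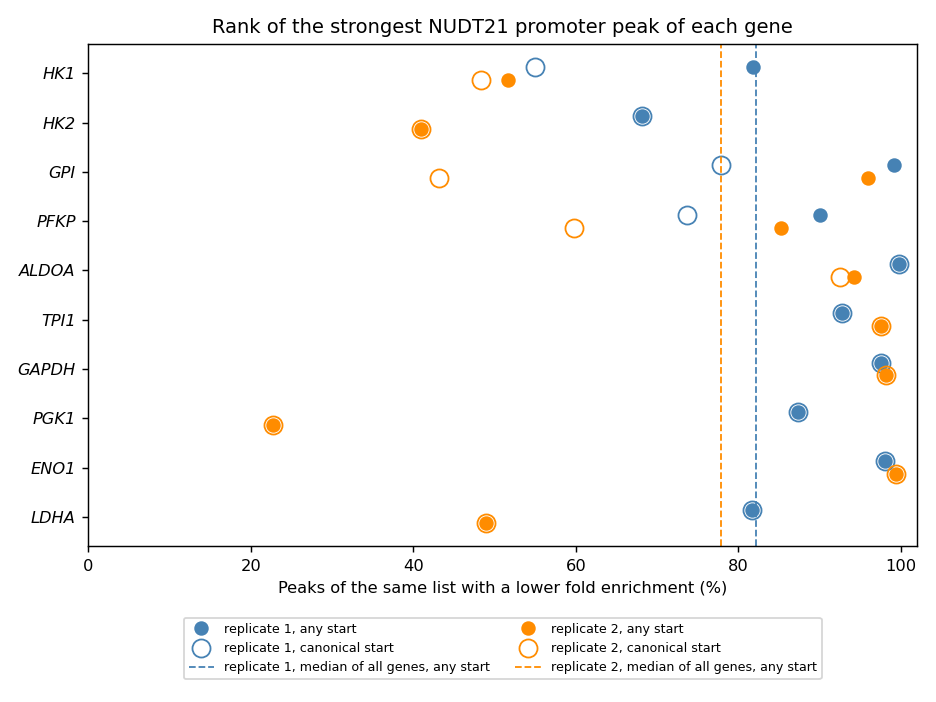
Each row is a gene, and the x axis gives the percentage of peaks in the same list with a lower fold than the strongest promoter peak of the gene, with filled points for any start and open circles for peaks within 3000 bp of the canonical start. Dashed lines mark the medians over all protein-coding genes with promoter peaks (82.2% in replicate 1 and 77.9% in replicate 2). For GPI and PFKP the filled points lie far to the right of the open circles in both replicates, and for PGK1 the replicates lie at 87.4% and 22.8%.

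The depth behind these folds was recovered from the deposited values. Replicate 1 had a median of 29 fragments at a summit, replicate 2 had 19, and the absolute read depth is unknown. Intervals are exact 95% Poisson intervals of the fragments with the background level held fixed, so they cover counting error only. As a check of the cell type, promoter peaks in both replicates were counted at marker genes. They were found at 6 of 8 T-cell, 4 of 5 B-cell and 3 of 4 myeloid markers, so peak presence did not separate these lineages.

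**Figure D2:**
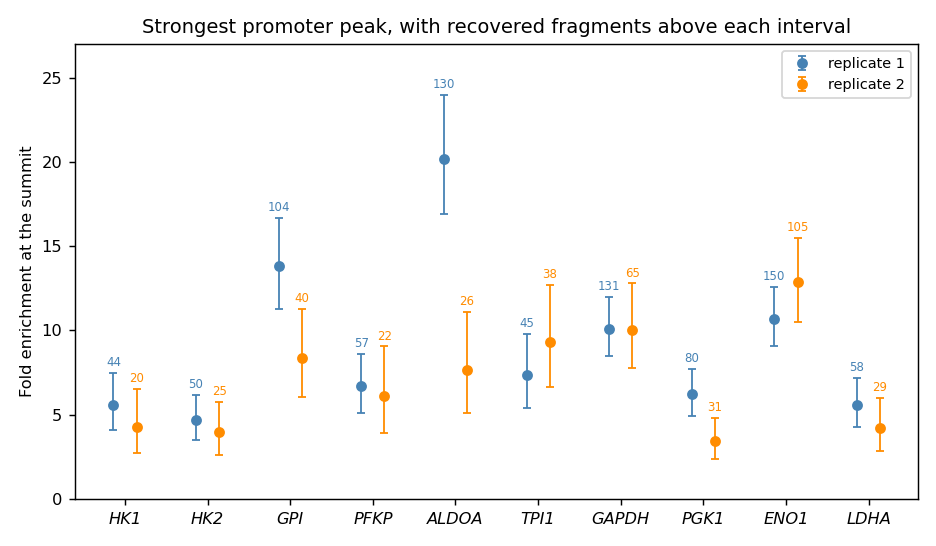
The y axis gives the fold enrichment at the summit of the strongest promoter peak of each gene in both replicates, with exact 95% intervals for counting error and the recovered fragments printed above each interval. Folds of different replicates come from separate lists and are not on 1 scale. For TPI1 in replicate 1, 2 peaks share the rounded fold of 7.37, and the upstream one (5.42 to 9.80, 45 fragments) is drawn. ALDOA is highest in replicate 1 at 20.2 and ENO1 is highest in replicate 2 at 12.9.

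Hexokinases trap glucose in the cell as glucose 6-phosphate. HK1 (ENSG00000156515.25, chr10:69269984-69401884, plus strand, hg38) encodes the widely expressed form that binds mitochondria, and it has 25 annotated starts in 9 clusters, where starts under 500 bp apart were joined. No peak touched the 4 most upstream clusters, 48863, 40351, 36292 and 3062 bp before the canonical start, or the 250 bp beside them. This held in both replicates, although peaks of both began within 3000 bp of the last of these clusters. For the genes below, a start or cluster was likewise said to have no peak when none touched it or the 250 bp beside it. The canonical start lay inside a peak in replicate 1, with a fold of 4.15 (3.05 to 5.54, 44 fragments). The replicate 2 peak, with a fold of 4.18 (2.69 to 6.23, 22 fragments), covered the start 763 bp upstream and ended before the canonical one. The strongest promoter peak of replicate 1 lay elsewhere, in intron 1, with a fold of 5.59 (4.10 to 7.46) over the RefSeq start shown above. Its summit lay 3377 bp before the nearest GENCODE start, so only its edge met the promoter criterion. The peak of replicate 2 at that place had a fold of 3.35, higher than 20.8% of its list. Inner starts 19173 and 63870 bp past the canonical one were also covered in both replicates, with folds of 4.29 and 4.08 at the first and 3.89 and 3.75 at the second. Thus, peaks at HK1 were of similar height at several starts, and none had a fold above 5.59.

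HK2 (ENSG00000159399.10, chr2:74834127-74893359, plus strand), the inducible hexokinase of proliferating cells, has 3 starts. The canonical start lay inside a peak in replicate 1, with a fold of 4.71 (3.52 to 6.17, 50 fragments), but in a gap between peaks in replicate 2. The inner start, 1043 bp away, was covered in both, with folds of 3.77 in replicate 1 and 3.96 in replicate 2 (2.61 to 5.77, 25 fragments). HK2-DT has a start within 3000 bp of these peaks and is a divergent noncoding gene. In replicate 1 the highest fold of the locus was not at a start but in intron 1, where peaks of 7.12 and 6.55 lay 6629 and 11348 bp past the canonical start. Replicate 2 had a peak only at the second of these places, with a fold of 4.28 (13 fragments).

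GPI (ENSG00000105220.17, chr19:34359480-34402413, plus strand) encodes the isomerase that forms fructose 6-phosphate and is also secreted as a cytokine. Its strongest peak lay at the most upstream start cluster, 5716 bp before the canonical start, with a fold of 13.8 in replicate 1 (11.3 to 16.7, 104 fragments). In replicate 2 the peak there had a fold of 8.37 (6.04 to 11.3, 40 fragments), and the 2 folds were above 99.2% and 96.0% of their lists. At the cluster with the canonical start, replicate 1 had a fold of 5.28 (3.79 to 7.16, 39 fragments) and replicate 2 had no peak. Within replicate 1, the intervals of the upstream and canonical peaks did not overlap. A start of the noncoding gene ENSG00000267219 lay within 3000 bp of this place, so signal there cannot be given to GPI alone. Further along the gene, a start 28071 bp past the canonical one was covered in both replicates, with folds of 4.34 and 4.04. The protein-coding gene ENSG00000266953 begins no more than 3000 bp from both of these peaks, so they cannot be assigned to GPI alone. No peak touched the GPI starts at 13782, 27000 and 32087 bp or the 250 bp beside them. Promoter peaks did lie within 3000 bp of these starts. Near the first, for example, their summits lay 1061 bp before it in replicate 1 and 1056 bp in replicate 2.

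PFKP (ENSG00000067057.19, chr10:3066333-3137718, plus strand) encodes the platelet form of phosphofructokinase, the committed step of glycolysis. It held more peaks than any other member, 24 in replicate 1 and 16 in replicate 2. The canonical start cluster had a peak in replicate 1, with a fold of 5.0 (3.45 to 7.03, 31 fragments), but none in replicate 2, where the nearest peak lay upstream with its summit 3351 bp before the canonical start and a fold of 4.58. This upstream place was also covered in replicate 1, with a fold of 3.69, and it lay within 3000 bp of a start of PFKP-DT. The strongest promoter peaks were near inner starts and at different places, with a fold of 6.69 in intron 7 in replicate 1 and of 6.08 in intron 21 in replicate 2. The replicate 2 summit lay 3151 bp past the nearest PFKP start, so only the edge of that peak met the promoter criterion. A start of the noncoding gene ENSG00000278419 lay within 3000 bp of it, and also of the peaks at the inner start 65687 bp past the canonical one. The highest fold of the locus, 12.9 (10.3 to 16.0, 83 fragments), lay in intron 2 in replicate 1, 17916 bp past the canonical start and outside every promoter window, and replicate 2 had no peak there. Thus, the 2 libraries differed at the canonical PFKP start and at this intronic place, while the inner start 65687 bp past the canonical one was covered in both, with folds of 4.07 and 4.32.

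**Figure D3:**
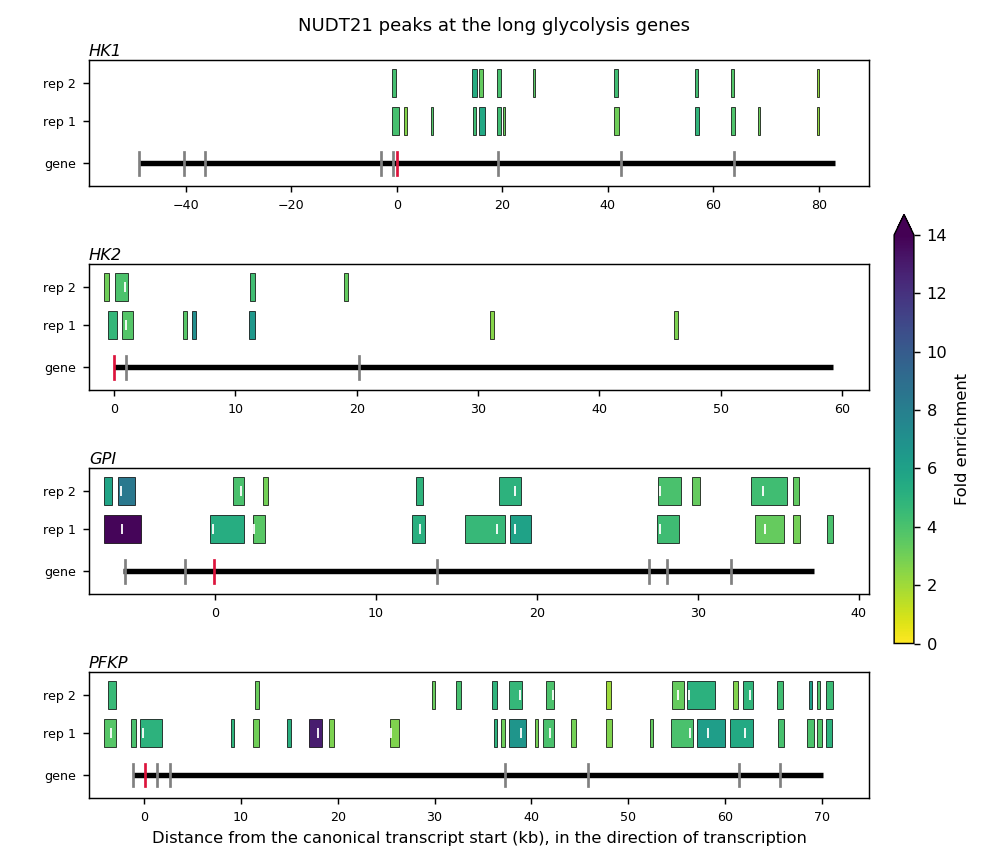
Peaks of HK1, HK2, GPI and PFKP are drawn to scale against the distance from the canonical start in kb, with 1 row per replicate, colour for the fold (values above 14 share the darkest colour) and, in wide peaks, a white tick for the summit. On the gene line, a red tick marks the start cluster that holds the canonical start and grey ticks mark the other clusters. No peak touches the 4 upstream HK1 clusters in either row. The strongest GPI peak lies at the upstream end of the gene, and the PFKP intron 2 peak of 12.9 appears in replicate 1 only.

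ALDOA (ENSG00000149925.22, chr16:30064164-30070457, plus strand) encodes the aldolase that cleaves fructose 1,6-bisphosphate into 2 trioses. In replicate 1 a single peak of 4009 bp covered 3 of its 4 start clusters, with a fold of 20.2 (16.9 to 24, 130 fragments) and rank 193 of 97162. In replicate 2 the peak over the first 2 clusters had a fold of 7.15 (5.20 to 9.61, 42 fragments), and the strongest promoter peak, 7.66 (5.10 to 11.1, 26 fragments), had its summit 4733 bp before the canonical start. In replicate 2 the peak nearest the inner cluster 1743 bp past the canonical start, with a fold of 4.29, ended just before it. The last cluster lies inside the gene, 3077 bp past the canonical start, and had folds of 8.92 and 7.17. Starts of the noncoding gene ENSG00000274904 lay within 3000 bp of some of these peaks, and in replicate 1 the farthest peak also lay near a start of PPP4C, a phosphatase gene.

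TPI1 (ENSG00000111669.15, chr12:6867119-6870948, plus strand) encodes the isomerase that interconverts the trioses. In replicate 2 the peak over its canonical start had a fold of 9.31 (6.66 to 12.7, 38 fragments), above 97.5% of the list. In replicate 1 a peak of 8281 bp covered the whole gene with a fold of 7.37 (6.31 to 8.57, 167 fragments), but its summit lay past the gene end, near starts of LRRC23 and SPSB2. A separate upstream peak with the same rounded fold of 7.37 lay near a start of USP5. The replicate 1 value thus cannot be given to TPI1 alone.

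The later steps begin with GAPDH (ENSG00000111640.15, chr12:6534512-6538374, plus strand), the dehydrogenase that produces NADH. Its fold was 10.1 in replicate 1 (8.49 to 12.0, 131 fragments) and 10 in replicate 2 (7.79 to 12.8, 65 fragments), above 97.6% and 98.2% of the lists. The summits lay 258 and 288 bp before the canonical start. Peaks covered 100% of the gene in replicate 1, as 1 interval of 9400 bp, and 91.6% in replicate 2. Starts of NCAPD2, a condensin subunit gene, and of GAPDH-DT also lay within 3000 bp of these peaks.

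PGK1 (ENSG00000102144.15, chrX:77910739-78129295, plus strand) encodes the first ATP-generating kinase of the pathway. Both replicates had a peak over its canonical start with the summit at the same base, 173 bp upstream. The fold was 6.23 in replicate 1 (4.95 to 7.73, 80 fragments) and 3.42 in replicate 2 (2.36 to 4.81, 31 fragments), and the replicate 2 fold was above 22.8% of its list. The summits of PGK1 held more fragments than the typical peak of either list, and the control levels at the summit, 11 and 8.35, were above the median control levels of 6 and 3.79. Such control levels were not particular to PGK1. The strongest promoter peaks of some other members, though not all, also exceeded both medians, among them ENO1 (12 and 7.24) and GAPDH (11 and 5.57). A second start 193509 bp upstream had a peak just before it in replicate 1 only, with a fold of 4.22, which lay near a start of the copper transporter gene ATP7A. Starts 39060 bp before and 18591 and 20696 bp after the canonical one had no peak.

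ENO1 (ENSG00000074800.16, chr1:8861000-8879190, minus strand) encodes alpha-enolase, which forms phosphoenolpyruvate. The peak over its main start cluster had a fold of 10.7 in replicate 1 (9.07 to 12.6, 150 fragments) and 12.9 in replicate 2 (10.5 to 15.5, 105 fragments). It ranked at 1928 of 97162 and 422 of 68532, the best rank of any member in replicate 2. The antisense gene ENO1-AS1 has a start within 3000 bp. No peak of either replicate touched the inner start cluster, 6742 bp past the canonical start, or the 250 bp beside it. A replicate 1 peak with a fold of 3.23 met the promoter criterion through this cluster, with its summit 1674 bp past it. A further peak in intron 11 was called in both, with folds of 8.19 (6.41 to 10.3, 70 fragments) and 5.78 (4.12 to 7.91, 37 fragments), and no start of another gene lay within 3000 bp of it.

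LDHA (ENSG00000134333.15, chr11:18394560-18408425, plus strand) encodes the muscle-type subunit of lactate dehydrogenase. Its canonical start had a fold of 3.63 in replicate 1 (2.80 to 4.64, 62 fragments) and 4.14 in replicate 2 (2.84 to 5.85, 30 fragments). Peaks at a second start cluster, 1715 bp downstream, had the higher fold in each list, 5.57 (4.26 to 7.17, 58 fragments) and 4.21 (2.87 to 5.98, 29 fragments), but the intervals of both starts overlapped in each replicate. The replicate 2 peak ended just before the first start of that cluster. Another cluster, at 4067 bp, was covered in replicate 1 only. LDHA and HK1 were the 2 members whose promoter peaks lay near no start of another gene.

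**Figure D4:**
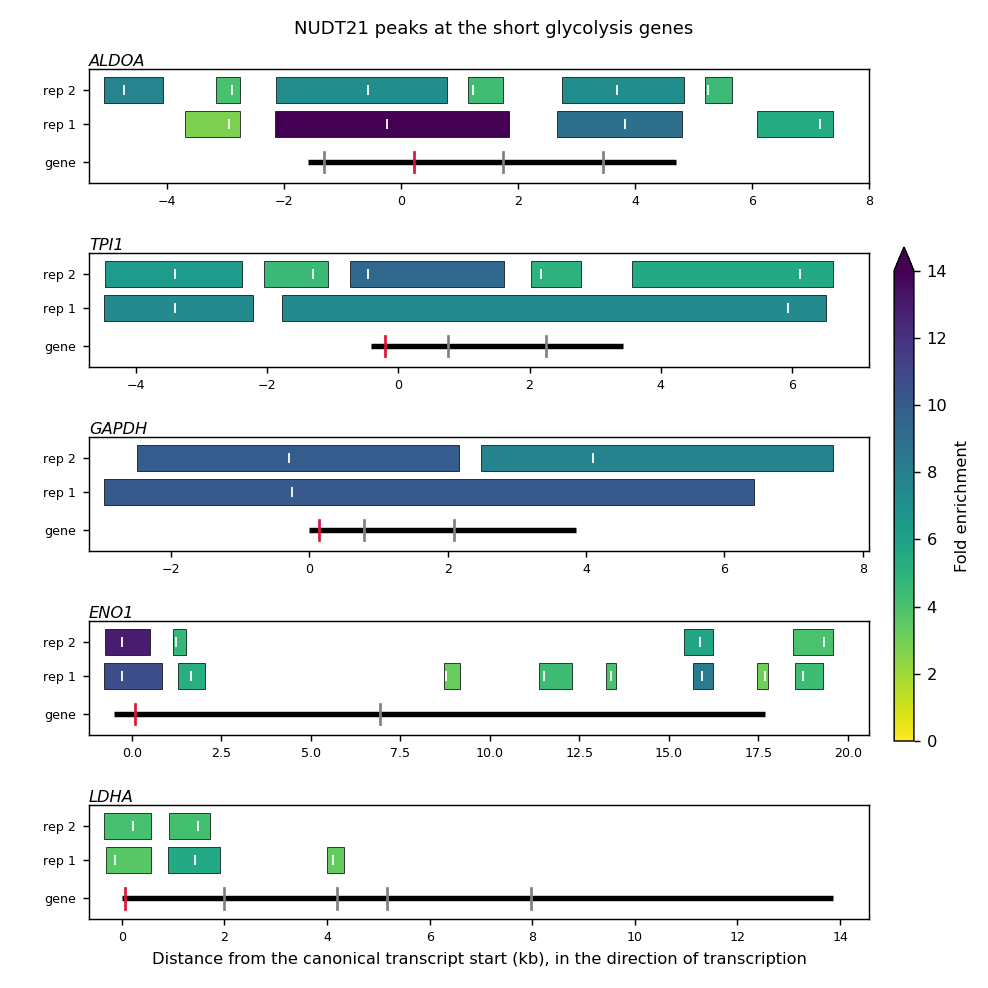
Peaks of ALDOA, TPI1, GAPDH, ENO1 and LDHA are drawn to scale against the distance from the canonical start in kb, with the direction of transcription to the right, and with rows, colours and ticks for folds, summits and start clusters as in the map of the long genes. Broad peaks cover 87.0%, 100% and 100% of ALDOA, TPI1 and GAPDH in replicate 1, whereas at ENO1 and LDHA separate narrow peaks leave most of the gene free.

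Across the group, 24 of 49 start clusters were touched by a peak in both replicates, when the cluster was extended by 250 bp on each side, while 26.8% of 69563 clusters of all protein-coding genes were. Another 7 were touched in replicate 1 only, and 18 in neither. Without the extension, 19 of 49 clusters had a start inside a peak in both replicates (all genes, 21.6%), a count added after the data had been seen. Every cluster touched in replicate 2 was also touched in replicate 1. For 3 of 10 genes, HK1, GPI and PFKP, the strongest promoter peak lay over 3000 bp from the canonical start in both replicates, against 16.0% of the 11425 protein-coding genes that had promoter peaks in each list. Only at GPI was that peak at the same start in both lists.

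Peaks within the genes were counted apart from promoters. A gene-body peak more than 3000 bp from every start of its gene was found in both replicates for 5 of 10 members, HK1, HK2, GPI, PFKP and ENO1 (28.6% of all genes). Over the whole group, 47 of 73 peaks of replicate 1 touched a peak of replicate 2 (64.4%, against 55.3% of the whole list). In turn, 53 of 59 peaks of replicate 2 touched one of replicate 1 (89.8%, against 85.9%). The HK1 peaks in intron 7 (folds 4.82 and 4.22) and the ENO1 peaks in intron 11 were examples that occurred in both lists.

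Because NUDT21 takes part in 3′ end formation, gene ends were examined next. A peak that touched the last base of the gene or the 1000 bp past it was found in both replicates for 5 of 10 members, ALDOA, TPI1, GAPDH, PFKP and ENO1, against 20.1% of all genes. The genes of ALDOA, TPI1 and GAPDH are 6294, 3830 and 3863 bp long, and their ends lay under peaks that also met the promoter criterion of the same gene. The PFKP end peaks, with folds of 5.01 and 4.47, lay within 3000 bp of a start of PITRM1, a mitochondrial protease gene. At ENO1 alone the end peaks, with folds of 4.40 (2.93 to 6.36, 26 fragments) and 4.03 (2.33 to 6.58, 14 fragments), were outside promoters and near no start of another gene. Their summits lay 1066 and 1662 bp past the gene end, so only their edges met the criterion. The peak over the ENO1 end itself, with its summit 8 bp past the end and a fold of 3.08, was called in replicate 1 only. With summits within 1000 bp of the end, 2 members counted in both replicates, ALDOA and PFKP, and the share of all genes under this rule is not given here. ALDOA counted through different peaks. Its replicate 1 summit lay inside the gene, 7 bp from an annotated start. The replicate 2 summit lay 558 bp past the end, in a peak that touched no peak of replicate 1. GPI had an end peak in replicate 1 only, with a fold of 4.01.

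The rest of the pathway was described from 3 lists. Of 17 genes for other isoenzymes and the missing steps, 12 had a promoter peak in both replicates, as did 9 of 12 genes for transporters and regulators and 2 of 6 genes of gluconeogenesis outside glycolysis, together 23 of 35 (57.0% of all genes). High folds, above 90% of the list in both replicates, were found at SLC16A3, which exports lactate (12.4 and 12.4), PC, pyruvate carboxylase (17.1 and 11.9), and PKM, the pyruvate kinase of proliferating cells (13.5 and 7.55). They were also found at SLC2A1, the GLUT1 glucose transporter (10.2 and 7.19), and at the isoenzyme genes PFKL (7.70 and 10.2), ALDOC (9.44 and 7.76), PGAM2 (9.05 and 9.20) and ENO3 (11.9 and 10). Genes without a promoter peak in either replicate included PGK2, LDHC, BPGM, G6PC1 and FBP1. G6PC1 and FBP1 are known as liver and kidney genes, and PGK2 and LDHC as testis genes. The isoenzyme genes of lactate dehydrogenase thus differed in peaks, with LDHA covered in both replicates while LDHB had a single promoter peak with a fold of 2.37 in replicate 1.

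**Figure D5:**
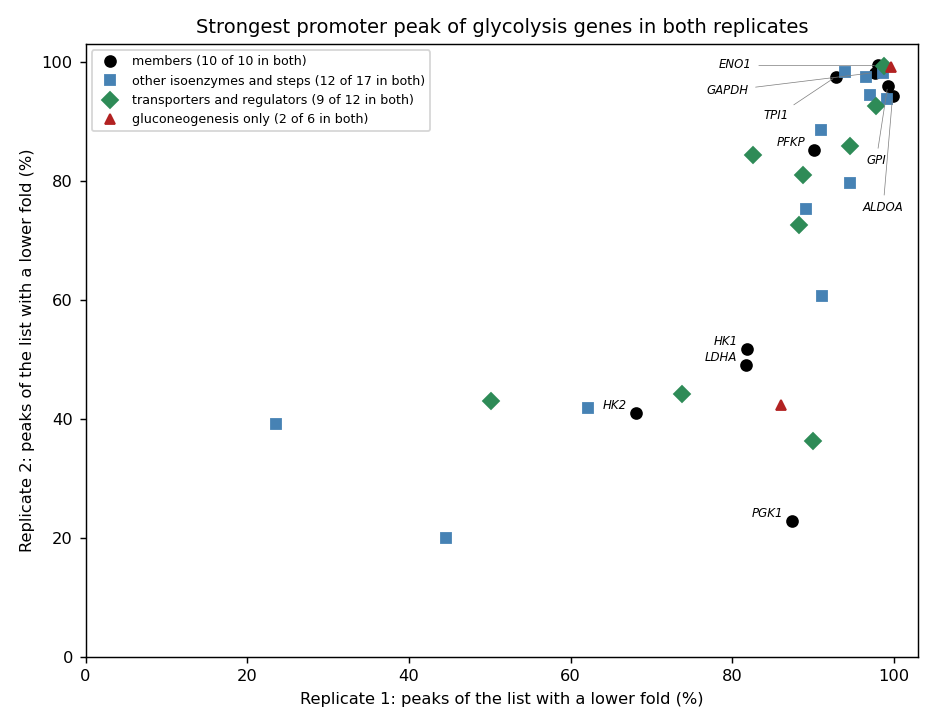
Each point is a gene with promoter peaks in both replicates, placed by the percentage of peaks with a lower fold in replicate 1 (x axis) and replicate 2 (y axis), with symbols for the members and the other 3 lists. ALDOA, ENO1, GAPDH, GPI and TPI1 lie above 90% on both axes together with 8 genes of the other lists, and PGK1, at 22.8%, has the lowest value on the y axis among the members.

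Promoter sequence was described from the RefSeq windows, which run from 250 bases before to 50 bases after each start. All 10 genes matched, with 24 windows, which were compared with all 35116 windows of the table. Peaks touched 13 of 24 member windows in both replicates (54.2%), against 29.9% of all windows. The member windows had a median of 29.5 CpG and 67.5% GC, against 14 and 58.7% for all. Of the 14 member windows with 25 or more CpG, 9 were touched in both replicates, while 50.1% of all such windows were. Of the 6 with fewer than 10 CpG, 2 were touched in both, against 8.0% of all such windows, and the 4 others were the upstream HK1 windows. These classes of CpG were chosen after the values had been seen, and windows of 1 gene can overlap.

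Motifs were searched by their letters on both strands of these windows. The core ACGTG occurred in 11 of 24 windows, in 8 of the 10 genes (45.8%, against 21.4% of all windows), and CACGTG, which contains it, in 4 (16.7%, against 7.26%). The GC box GGGCGG occurred in 14 (58.3%, against 45.0%), and CCAAT in 5 (20.8%, against 34.6%). No member window held TATAAA, which 11.5% of all windows held. TGTA, the DNA form of the core bound by NUDT21 in RNA, occurred in 12 (50%, against 58.5%). A match of letters describes the sequence and does not mark a bound site.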

How the data were processed

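CUT&Tag libraries of 2 J.gamma1 replicates were analysed from the peak lists that the authors deposited. Per the labels and the methods, reads were trimmed with fastp, aligned to hg38 with Bowtie2 2.2.5, cleared of duplicates with Picard and passed to MACS3 3.0.1, which called peaks in each replicate separately. Values deposited by the authors were, for each peak, the fold enrichment at the summit (a ratio of pileup plus 1 to background plus 1), its −log10 p and −log10 q, and a score derived from the q-value, which was not used. A control library is not described in the methods. The pileups of replicate 1 were scaled, which MACS does when it compares libraries of unequal depth, so the folds may be over a control library, over local background of the same library, or both.

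Fragments and the background, here called the control level, were solved from the fold and −log10 p of each peak, with a tolerance of 0.0005 times the −log10 p or 1, whichever was larger. A solution was found for 99.981% of peaks in replicate 1, with pileups scaled by 0.92136, and 99.997% in replicate 2. The solution and the assignment of peaks were tested on simulated data. Peaks were assigned with Python 3.11.15, numpy 2.4.6, pandas 2.3.3 and scipy 1.17.1 to GENCODE 44 genes. Promoter sequences came from RefSeq (GRCh38.p14), and 24 of 24 member windows were identical to hg38. With 1 group there was no comparison between conditions, so no test was made and counts stand beside those of all protein-coding genes.

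Named genes were the 10 members, genes with a start near a promoter peak of a member, and genes of the pathway lists with folds above 90% of the list in both replicates or no promoter peak in either. Not every gene that met this rule is reported here. LDHB and PITRM1 were named after their values were seen. The members and lists were chosen with earlier results of these data known. Alternatives were other promoter and gene-end distances, summits in place of edges, canonical starts, stricter peak lists, other rankings, other start clusters and each replicate alone. Start clusters without extension were added after the data had been seen.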

Additional observations from a re-analysis of the deposited data

How the results depend on the processing

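Of 42 alternative values, 29 stayed close to the reported one. Close means within a factor of 1.5 for counts and within 1.24, the SD of both replicates, for the median rank. These values have no sign, so none could change direction. Values of each replicate alone for the median rank and for members with promoter peaks were close by construction, and every other setting moved the median rank. With canonical starts only, the members' median in replicate 2 fell from above that of all genes (89.7% against 77.9%) to below it (54.4% against 74.3%). In replicate 1 it stayed above (84.5% against 79.5%). The median percentage of peaks with a lower fold, 90.6% as a mean of both replicates, was 85.6% with promoters within 1000 bp and also with summits in place of edges, 69.5% with canonical starts only, 86.0% with a −log10 q of at least 5, 68.4% with 10000 peaks per list, 94.4% when ranked by −log10 p, and 86.7% when ranked among promoter peaks. With 10000 peaks per list, where fewer peaks can reach fewer genes, 6 members kept a promoter peak in both replicates (10 reported), 11 pathway genes did (23), 3 members had a gene-end peak (5), 1 had a gene-body peak (5) and 10 start clusters were touched (24). With a summit within 1000 bp of the end, 2 members had a gene-end peak, ALDOA through different peaks in the 2 lists. From each replicate alone, the counts were 10 to 10 members with promoter peaks, 5 to 6 with gene-end peaks, 5 to 5 with gene-body peaks, 24 to 31 start clusters and 24 to 28 pathway genes, and the median rank was 89.7% to 91.4%. No paired analysis was possible because the 2 samples form a single group. The recovered fragments, 11 to 167 at the peaks of the 10 genes, limit each fold. Summits of replicate 2 held fewer fragments (median 19 against 29), and the part of this in peaks called in replicate 1 only was not tested.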

Other observations

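Several members have pseudogene copies in the genome, and reads of such copies can be hard to place. GENCODE 44 names 84 pseudogenes after the members, 65 of them after GAPDH. Peaks touched 8 of the 84 in replicate 1 (9.52%), 3 in replicate 2 (3.57%), and 2, ALDOAP1 and GAPDHP35, in both (2.38%). Of all 10658 processed pseudogenes, peaks touched 6.11%, 3.91% and 3.14%. These genes were named after their values were seen.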
